A study of Mus musculus with 4 samples.

Results

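The genes described here make, modify, carry, activate, burn, store and sense fatty acids, and they were followed in whole brain RNA of senescence-accelerated mice. A list of 48 genes was matched by RefSeq accession to the probes of a two-colour array, and 47 of the 48 had a probe, of 16535 genes named in this way on the array. No probe matched Fabp5. The probe of Acacb, the mitochondrial form of acetyl-CoA carboxylase, was too dim to measure, which left 46 measured genes in each comparison. The 47 genes had 66 probes, with 1 probe for 31 genes, 2 for 13 and 3 for Acaca, Acsl1 and Alox5.

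The arrays carried RNA of 3 kinds of mouse, all 50 weeks old. SAMP8 (senescence-accelerated mouse prone 8) mice ate either the control diet, low-safflower oil (LSO), or food with whale meat extract added (WME), and SAMR1, the senescence-resistant strain, ate LSO only. The labels give both strains an AKR/J background with suspected outbreeding to an unknown line. All mice arrived at 6 weeks, ate chow until 24 weeks and the powdered diet for 26 weeks after that, and went through 8 days of behavioural tests at 49 weeks, so every RNA comes from tested animals. The fat and fatty acid content of the diets, the sex of the mice and the number of mice behind an RNA are not given in the sources used here. The diet pair set SAMP8 on WME over SAMP8 on LSO, and the strain pair set SAMP8 over SAMR1, both on LSO. A pair occupied 2 arrays of opposite dye orientation.

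Fatty acids are built from malonyl-CoA by fatty acid synthase, lengthened by the Elovl elongases and given double bonds by the Scd and Fads desaturases. Brain takes up long-chain polyunsaturated fatty acids from blood and also lengthens and desaturates their precursors, and its myelin needs large amounts of very long and monounsaturated chains. Binding proteins and transporters hand the chains to acyl-CoA synthetases, which commit them to membranes, to lipid droplets or to beta-oxidation. The PPAR nuclear receptors respond to fatty acids and switch on genes of uptake, storage and oxidation, while SREBP-1, encoded by Srebf1, drives synthesis and desaturation.

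With 1 RNA per group and a dye swap counted as 1 replicate, neither comparison has a biological replicate and no p-value can be given. Every value below is a log2 ratio turned for the dye, so that a positive value means more signal in WME than in LSO, or in SAMP8 than in SAMR1. The error given is an SD between the arrays of a pair, which covers hybridisation and dye bias and leaves out the spread between mice. A gene is given by its brightest probe unless another is named. It was called when both arrays put the same RNA higher by 1.5-fold or more, and a smaller threshold of 1.2-fold on both arrays is also given. In whole brain, fewer cells of a type and less RNA per cell cannot be told apart.

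All 4 arrays lay on 1 slide. Each held 43379 non-control spots for 41174 probes, with median signals of 275 to 321 in Cy3 and 306 to 357 in Cy5 over local backgrounds of 65 to 75.5, and 0 saturated spots. All 10 measured neuron markers, 11 astrocyte markers and 11 oligodendrocyte markers were above background in every RNA. Both comparisons contain the SAMP8 LSO RNA, as the denominator of the diet pair and the numerator of the strain pair. A high or low reading of that RNA moves a gene's values in both pairs in opposite directions. The values are therefore linked and are set side by side below without any measure of likeness.

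In the diet pair none of the 46 fatty acid genes was called. Over all 26667 measured genes, 15 (0.0562%) were called higher on WME and 8 (0.03%) lower. At 1.2-fold the count of members was again 0, where 46 genes (0.172%) were higher and 29 (0.109%) lower over the whole array. The mean log2 ratios of the members ran from −0.17 for Scd2 to 0.083 for Fads3, so that no mean exceeded 1.12-fold. The members' median was −0.0042 against 0.0037 for all genes, and 41 of 46 (89.1%) lay within 0.1 of 0, as did 23459 of the 26667 genes. Only 4 members were above 0 on both arrays and 6 below, 10 of 46 with the same sign, where 38.2% of all genes had the same sign. The remaining 36 changed sign with the dye.

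**Figure D1:**
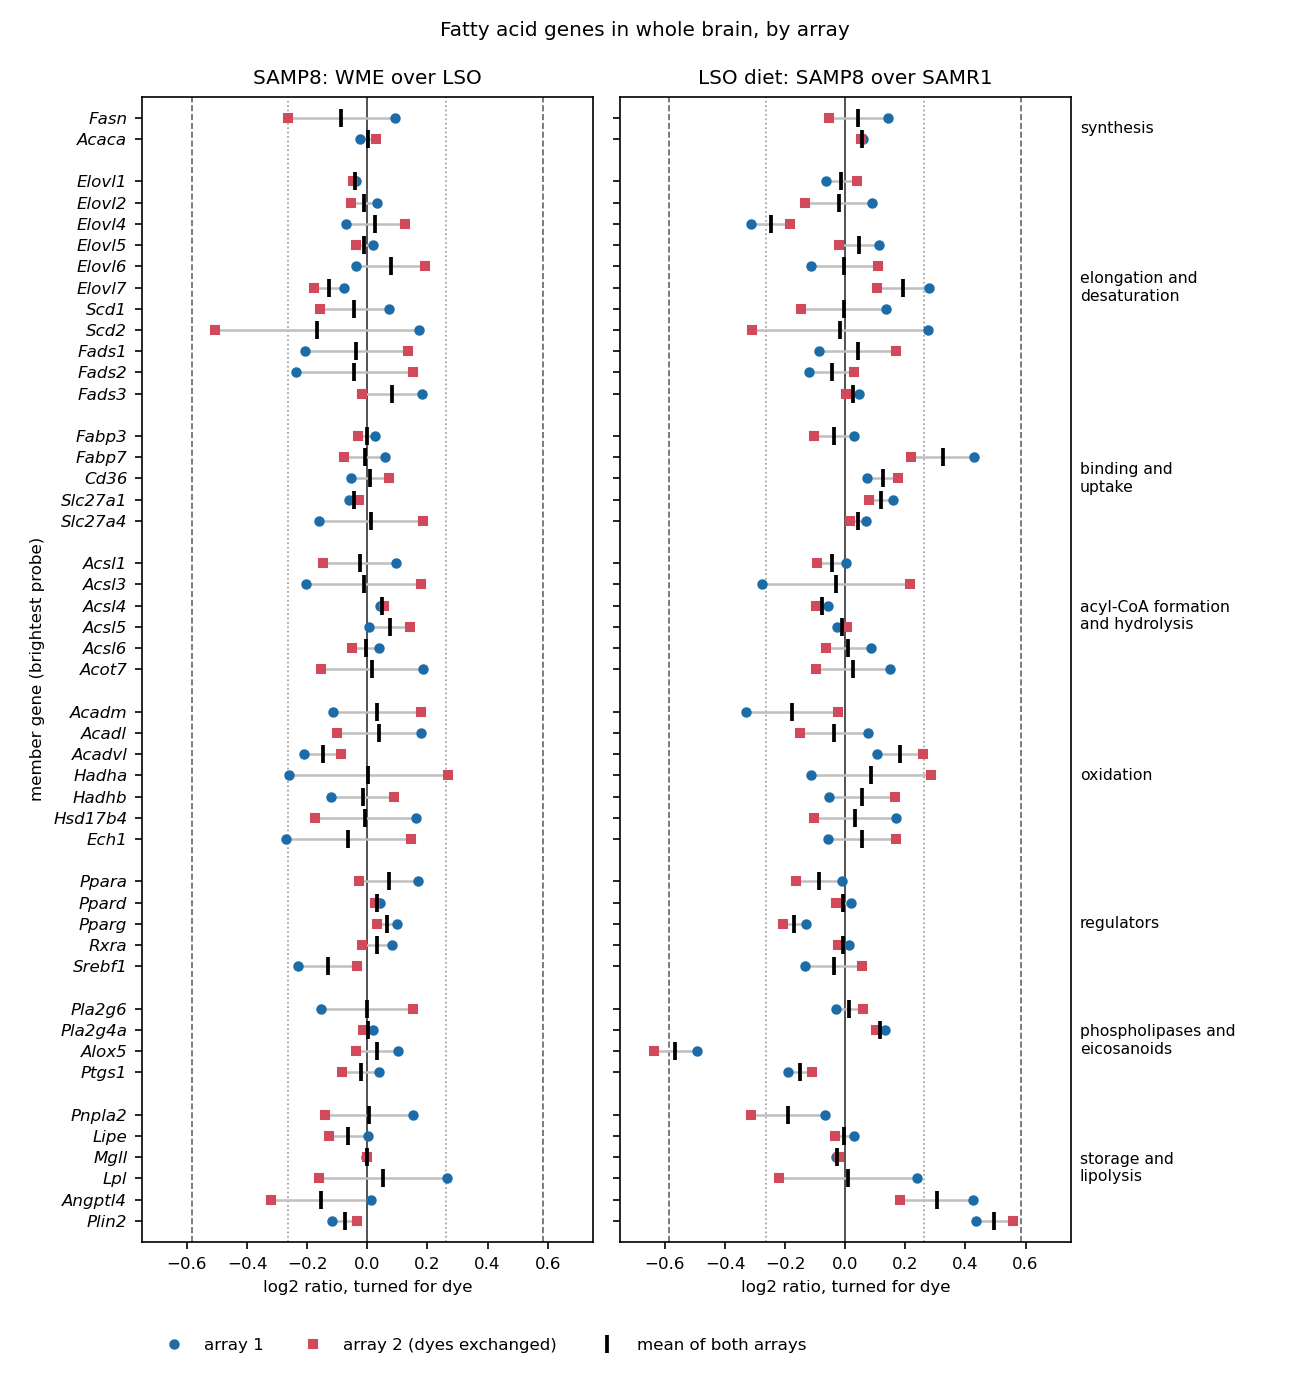
Log2 ratio (x axis) of the 46 measured members (y axis, brightest probe, grouped by role) on array 1 (circles), on array 2 with the dyes exchanged (squares) and as the mean (bars), for WME over LSO at left and SAMP8 over SAMR1 at right; dashed lines mark 1.5-fold and dotted lines 1.2-fold. At left every mean lies between −0.17 and 0.083, and at right Alox5 and Plin2 are the members with both arrays past 1.2-fold.

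Of the synthesis genes, Fasn encodes fatty acid synthase, which builds palmitate, and Acaca encodes the carboxylase that supplies its malonyl-CoA. Fasn read 0.091 and −0.26 on the arrays of the diet pair, for a mean of −0.086 ± 0.25, and Acaca read −0.025 and 0.029. On these probes both genes sat on opposite sides of 0 with the dyes exchanged. Of the other Acaca probes, one read 0.019 and 0.056 (0.037 ± 0.026) and one −0.14 and 0.047, and the second Fasn probe read 0.036 and −0.043. The first of these Acaca probes changed sign from processed signals, at −0.074 and 0.15.

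The elongases and desaturases had a median of −0.036 over 11 genes, and 2 of the 11 had one sign. Elovl7, an elongase of long saturated chains, read −0.077 and −0.18 on WME over LSO (−0.13 ± 0.070), and its second probe read −0.078 and −0.039 (−0.059 ± 0.028). All 4 of its readings were below 0. Elovl1, an elongase of very long saturated chains, read −0.039 and −0.046 (−0.042 ± 0.0051). The larger readings in this group changed sign. Scd2, the main stearoyl-CoA desaturase of brain, read 0.17 and −0.51 (−0.17 ± 0.48), and the front-end desaturases of polyunsaturated synthesis read −0.21 and 0.14 for Fads1 and −0.24 and 0.15 for Fads2. In deposited processed signal, Scd2 stood at 77455 in WME and 83672 in LSO on array 1 and at 62626 and 72030 on array 2. It was lower on WME on both arrays in that scaling, with a log2 ratio of −0.16 ± 0.064.

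The binding and uptake genes lay near 0 in the diet pair, with means between −0.043 and 0.011 over 5 genes. Fabp7, the brain fatty acid binding protein of astrocytes and radial glia, read 0.059 and −0.077 (−0.0087 ± 0.096). Slc27a1, a fatty acid transport protein, was the single gene of this group with one sign, at −0.060 and −0.027 (−0.043 ± 0.023). Among the 6 genes of acyl-CoA formation and hydrolysis, the acyl-CoA synthetases Acsl5 and Acsl4 were above 0 on both arrays. Acsl4, which prefers arachidonate, read 0.043 and 0.056 (0.049 ± 0.0086), and its second probe 0.11 and 0.013. From processed signals the brightest Acsl4 probe changed sign, at 0.092 and −0.0054. Acsl5 read 0.0067 and 0.14 (0.075 ± 0.097). Acsl3, a synthetase of lipid droplet growth, read −0.20 and 0.18 and thereby changed sign.

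Acadvl, the very long-chain acyl-CoA dehydrogenase that opens mitochondrial beta-oxidation, was the oxidation gene with one sign in the diet pair. Its signal was 6558 in WME and 7677 in LSO on array 1, and 6083 and 6342 on array 2. The log2 ratios were −0.21 and −0.087 (−0.15 ± 0.087). The other 6 oxidation genes changed sign with the dye, most widely Hadha, the alpha subunit of the trifunctional protein, at −0.26 and 0.27 (0.0035 ± 0.37).

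Among the 5 regulators, Srebf1 was lower on WME on both arrays, at −0.23 and −0.035 (−0.13 ± 0.14). Pparg, the PPAR of adipocytes and macrophages, read 0.099 and 0.034 (0.067 ± 0.046), and the widely expressed Ppard read 0.043 and 0.024 (0.034 ± 0.013). The Ppard probe is dim, with processed signals of 50.1 to 81.7 in this pair. From those signals Ppard changed sign, at 0.17 and −0.17. Ppara, the PPAR of fasting and oxidation, read 0.17 and −0.027. The array difference of Srebf1 was of the size of its mean, so a single orientation carries most of it.

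The 4 phospholipase and eicosanoid genes, which release arachidonate and turn it into signalling lipids, all changed sign in the diet pair, with means between −0.022 for Ptgs1 and 0.031 for Alox5. Of the 6 genes of storage and lipolysis, Plin2, which coats lipid droplets, read −0.12 and −0.033 (−0.075 ± 0.060). Angptl4, a secreted inhibitor of lipoprotein lipase, read 0.012 and −0.32 (−0.15 ± 0.24), and Lpl, lipoprotein lipase itself, 0.26 and −0.16 (0.051 ± 0.30). Mgll, the monoacylglycerol lipase that breaks down the endocannabinoid 2-arachidonoylglycerol, lay at −0.0026 ± 0.0041.

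The direction of these small diet values depended on the scaling. When each array was centred on its median in place of the loess curve, the median of all genes moved to 0.066 and that of the members to 0.15. Elovl7, Elovl1, Slc27a1, Acadvl, Srebf1 and Plin2 then lay above 0, at 0.049, 0.14, 0.14, 0.043, 0.081 and 0.093, and Ppard below 0 at −0.060. No member was past 1.2-fold on both arrays in this setting either.

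Dye bias was the larger component for most members in the diet pair. Taking the mean of both arrays as the part that follows the RNA and their half-difference as the part that follows the dye, the SD over the 46 members was 0.0616 for the RNA part and 0.129 for the dye part. In the strain pair the order of the SDs was reversed, with 0.157 for the RNA part and 0.107 for the dye part. Even there 26 of the 46 members changed sign with the dye, which means that their dye part was the larger. Over all genes the RNA part had an SD of 0.0828 in the diet pair and 0.201 in the strain pair, with a dye part of 0.109 and 0.105. The dye part had the same sign in both pairs for 40 of the 46 members. The technical error that remains when the dye parts of both pairs are subtracted had an SD of 0.0402 over the members.

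**Figure D2:**
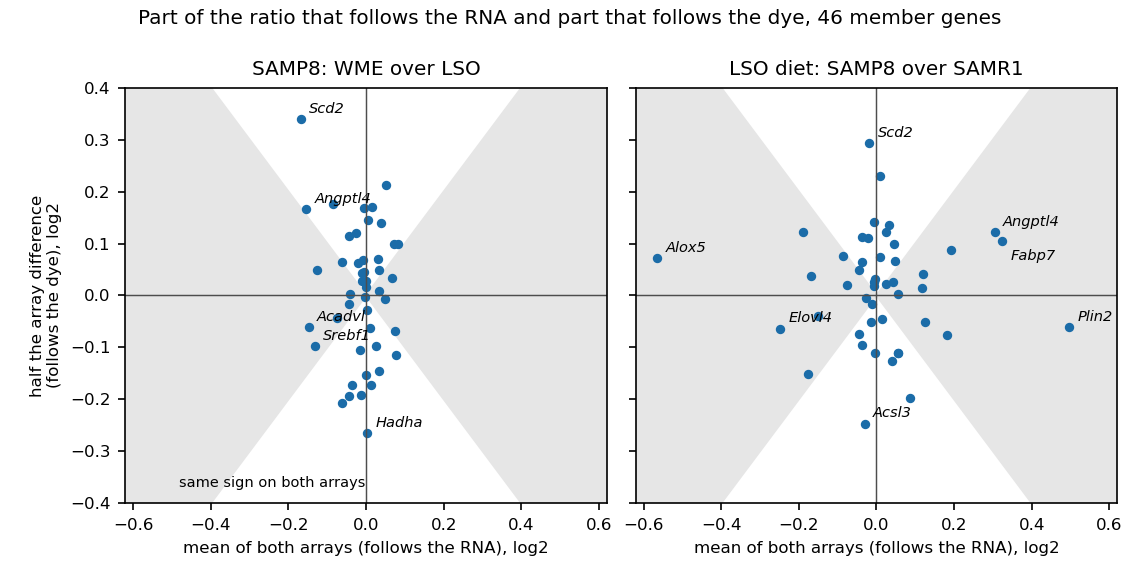
Mean of both arrays (x axis, log2, follows the RNA) against the array half-difference (y axis, log2, follows the dye) for 46 members in the diet pair (left) and the strain pair (right); the shaded area holds genes with the same sign on both arrays. The diet points stand in a narrow column with Scd2 at its top and Hadha at its foot, and in the strain pair Alox5 lies far to the left and Plin2, Fabp7 and Angptl4 to the right.

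In the strain pair, Plin2 and Alox5 stood apart from the other members, Plin2 higher and Alox5 lower in SAMP8 than in SAMR1. Neither reached 1.5-fold on both arrays, so the count of called members was 0 in each direction, where 261 of 26939 genes (0.969%) were called higher in SAMP8 and 133 (0.494%) lower. At 1.2-fold, 1 member was higher and 1 lower, against 2.81% and 1.71% of all genes. The mean log2 ratios ran from −0.56 for Alox5 to 0.50 for Plin2 around a median of −0.0034 (all genes −0.0067). With the same sign on both arrays were 20 of 46 members, 11 above and 9 below 0, where 50.6% of all genes had one sign. Within 0.1 of 0 lay 32 of 46 members (69.6%) and 70.2% of all genes.

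The stretches of promoter before the start of Alox5, Plin2 and Fabp7 are shown because these members had the largest mean log2 ratios in size in the strain pair. They come from RefSeq's promoter table for build GRCm38.p6 and cover the 250 bases before the transcription start, 5′ to 3′ on the gene's strand. The Alox5 promoter is chr6:116461179-116461428 on the minus strand, with capitals on the GC box GGGCGG. The Plin2 promoter is chr4:86670060-86670309 on the minus strand and the Fabp7 promoter chr10:57784673-57784922 on the plus strand. In both, capitals mark TGACCT, the reverse complement of the nuclear receptor half-site AGGTCA.
Alox5: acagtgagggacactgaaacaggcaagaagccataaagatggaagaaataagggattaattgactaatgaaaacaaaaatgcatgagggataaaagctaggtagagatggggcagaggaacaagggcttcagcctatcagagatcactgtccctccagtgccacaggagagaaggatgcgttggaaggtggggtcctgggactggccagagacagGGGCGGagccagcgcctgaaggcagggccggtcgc
Plin2: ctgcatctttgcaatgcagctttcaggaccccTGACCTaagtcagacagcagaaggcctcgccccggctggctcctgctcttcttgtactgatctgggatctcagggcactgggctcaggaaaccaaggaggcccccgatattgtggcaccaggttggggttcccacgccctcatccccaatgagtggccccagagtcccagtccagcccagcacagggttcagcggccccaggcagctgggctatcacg
Fabp7: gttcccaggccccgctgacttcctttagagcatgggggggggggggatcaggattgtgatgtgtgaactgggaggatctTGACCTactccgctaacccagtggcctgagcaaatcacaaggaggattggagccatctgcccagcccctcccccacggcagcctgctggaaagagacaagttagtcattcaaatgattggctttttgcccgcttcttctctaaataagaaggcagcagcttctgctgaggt

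Both strands of 56 such stretches for 41 members, and of every promoter in the table, were searched for 6 motifs, none of which overlaps another in letters except that the PPAR element holds the half-site. The half-site AGGTCA lay in 12 of the 56 member stretches (21.4%) and in 4607 of all 32851 promoters. The GC box GGGCGG lay in 34 of 56 (60.7%) and in 32.7% of all. The PPAR and RXR element, taken as AGGTCA repeated after 1 free base, lay in 0 of 56 and 0.0335% of all, the classic sterol regulatory element in 0 of 56 and 0.0731%, the E-box CACGTG in 4 of 56 and 6.02%, and TATAAA in 3 of 56 and 12.4%. These are matches of letters in a short window, and some genes contribute more than 1 start.

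Alox5 encodes arachidonate 5-lipoxygenase, which starts leukotriene synthesis. Its brightest probe had a processed signal of 164.9 in SAMP8 and 252.6 in SAMR1 on array 1, and 167.6 and 289.4 on array 2. SAMP8 was below SAMR1 in both orientations and the ranges did not overlap. The log2 ratios were −0.49 and −0.64 (−0.56 ± 0.10, 1.48-fold). The second probe read −0.57 and −0.42 (−0.49 ± 0.11, 1.41-fold) and the third −0.19 and −0.38 (−0.28 ± 0.13, 1.22-fold). All 6 readings were thus below 0. The probes are dim, the third with processed signals of 47.8 in SAMP8 and 66.1 in SAMR1 on array 1 over local backgrounds of 69 to 75.5, and the offset of 50 used in background correction shrinks such ratios. From the deposited processed signals, the brightest probe read −0.62 and −0.79 (−0.70 ± 0.12) and passed 1.5-fold on both arrays. In the diet pair the same probe had signals of 204.1 and 186.1 on array 1 and 170.3 and 178.2 on array 2 for WME and LSO, with WME above on one array and below on the other.

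The other genes of this role lay nearer to 0 in the strain pair. Pla2g4a, the cytosolic phospholipase A2 that releases arachidonate, read 0.13 and 0.10 (0.12 ± 0.021), and its second probe 0.16 and 0.24 (0.20 ± 0.056). Ptgs1, or cyclooxygenase 1, read −0.19 and −0.11 (−0.15 ± 0.055). The calcium-independent phospholipase Pla2g6 changed sign around 0.014. Pla2g4a was therefore above 0 and both oxygenases below 0 on every array, and the group median was −0.069 over 4 genes.

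Plin2 had processed signals of 2607 in SAMP8 and 1863 in SAMR1 on array 1, and 2679 and 1946 on array 2. Both SAMP8 values lay above both SAMR1 values. The log2 ratios were 0.44 and 0.56 (0.50 ± 0.086, 1.41-fold). Angptl4 had signals of 1189 and 857 on array 1 and 1061 and 912 on array 2, and log2 ratios of 0.43 and 0.18 (0.30 ± 0.17, 1.24-fold). SAMP8 was above SAMR1 on both arrays, by a margin that differed between dye orientations. The lipases had values nearer to 0 or below it. Pnpla2, the adipose triglyceride lipase, read −0.066 and −0.31 (−0.19 ± 0.17), while its second probe changed sign at −0.35 and 0.091. Mgll read −0.032 and −0.022 (−0.027 ± 0.0073), and Lipe, hormone-sensitive lipase, changed sign around −0.0029. From processed signals Mgll changed sign too, at −0.080 and 0.023. Lpl changed sign on its brightest probe (0.0083 ± 0.32), and its other probe read 0.11 and 0.24 (0.18 ± 0.092).

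Binding and uptake was the role with the highest median in the strain pair, 0.12 over 5 genes, and 4 of the 5 were above 0 on both arrays. Fabp7 had signals of 13526 in SAMP8 and 10084 in SAMR1 on array 1, and 13779 and 12055 on array 2. SAMP8 was the higher RNA in both orientations. The log2 ratios were 0.43 and 0.22 (0.32 ± 0.15, 1.25-fold); under median centring array 2 gave −0.017 and the mean was 0.23. Cd36, a scavenger receptor that takes up fatty acids, read 0.072 and 0.18 (0.12 ± 0.073), and Slc27a1 read 0.16 and 0.078 (0.12 ± 0.057). Slc27a4 lay at 0.069 and 0.016 (0.043 ± 0.038), its mean turned to −0.00071 under median centring, and its second probe changed sign at −0.20 and 0.089. Fabp3, the heart-type binding protein also found in neurons, changed sign with a mean of −0.038.

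Among elongases and desaturases, Elovl4 was lower in SAMP8. It makes the very long-chain fatty acids of retina, skin and synapses. The signals were 1781 in SAMP8 and 2111 in SAMR1 on array 1 and 1873 and 2167 on array 2. Both SAMP8 values lay below both SAMR1 values. The log2 ratios were −0.31 and −0.18 (−0.25 ± 0.090, 1.19-fold). Elovl7 was above 0 at 0.28 and 0.11 (0.19 ± 0.12) and on its second probe at 0.037 and 0.043 (0.040 ± 0.0041). Fads3 read 0.047 and 0.0025, with a mean that turned negative (−0.0088) in the processed signals and under median centring (−0.027). The remaining 8 of the 11 changed sign, among them Scd2 at 0.27 and −0.31 (−0.019 ± 0.41), Scd1 at 0.14 and −0.15, Fads1 at −0.086 and 0.17 and Fads2 at −0.12 and 0.030. The group median was −0.0057.

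**Figure D3:**
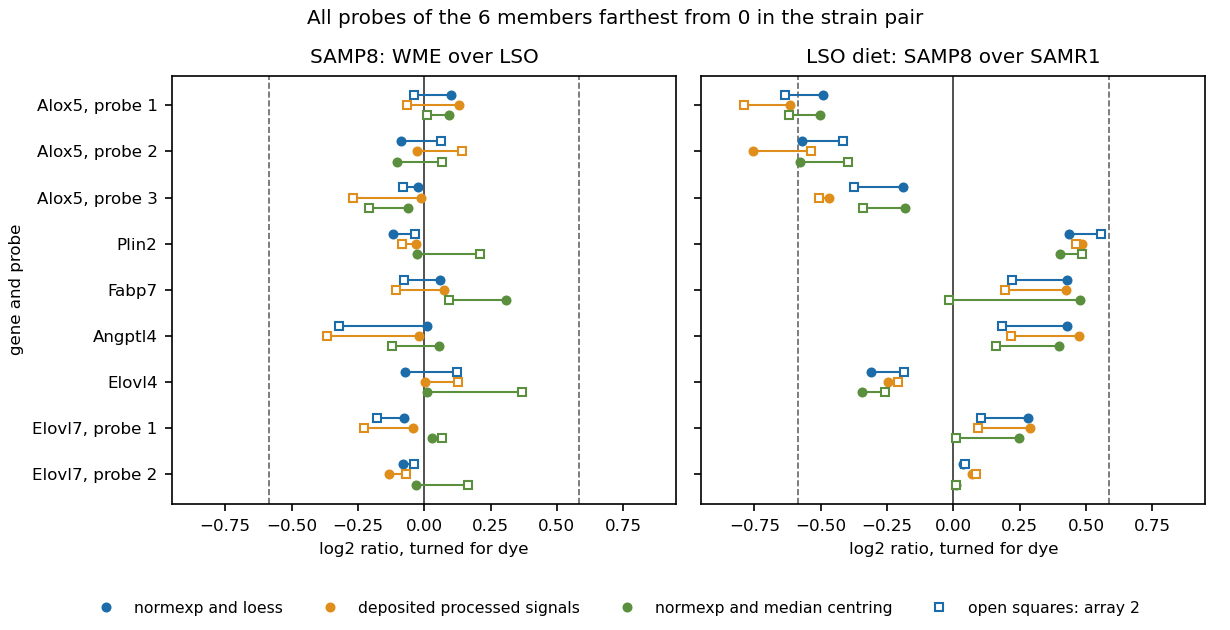
Log2 ratio (x axis) on array 1 (filled circles) and array 2 (open squares) for every probe (y axis) of the 6 members farthest from 0 in the strain pair with one sign on both arrays, in the diet pair (left) and strain pair (right), after normexp and loess (blue), from the deposited processed signals (orange) and after median centring (green); dashed lines mark 1.5-fold. All 3 Alox5 probes are left of 0 in the strain pair in each scaling, Plin2 is right of 0, and Fabp7 reaches −0.017 on array 2 under median centring.

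The synthesis genes differed little between strains. Acaca read 0.058 and 0.052 (0.055 ± 0.0040), and its other probes had means of 0.078 and 0.088. From processed signals its brightest probe changed sign, at −0.023 and 0.058. Fasn changed sign on its brightest probe (0.044 ± 0.14), and its second probe read −0.061 and −0.055. Of the acyl-CoA genes, Acsl4 read −0.056 and −0.097 (−0.077 ± 0.029), but its second probe read 0.043 and 0.066 (0.054 ± 0.016). The probes of Acsl4 thus pointed in opposite directions, by less than the 0.3 that was set as a disagreement. Over the 16 genes with more than 1 probe, the probes disagreed by that measure in 0 in either pair. The largest gap was 0.28, for Alox5 in the strain pair. From processed signals both Acsl4 probes changed sign in that pair, the brightest at 0.011 and −0.16 and the second at −0.050 and 0.11.

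Oxidation had a median of 0.056 over 7 genes in the strain pair, with single-array medians of −0.056 and 0.17. Acadvl was above 0 at 0.10 and 0.26 (0.18 ± 0.11). Acadm, the medium-chain acyl-CoA dehydrogenase, read −0.33 and −0.026 (−0.18 ± 0.21). The other 5 oxidation genes changed sign with the dye, among them Acadl, the long-chain dehydrogenase, at 0.076 and −0.15. Hadha, at −0.11 and 0.28, again had the widest gap between arrays.

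On their brightest probes the 5 regulators had means below 0 in the strain pair, and 2 of them had one sign. Pparg read −0.13 and −0.21 (−0.17 ± 0.053). Ppara read −0.0093 and −0.16 (−0.086 ± 0.11). Ppard, Rxra, the shared partner of the PPARs, and Srebf1 changed sign with means of −0.0062, −0.0059 and −0.038. The second Rxra probe was above 0 at 0.039 and 0.079 (0.059 ± 0.028), and the Ppard mean was 0.0085 from processed signals and 0.021 under median centring. Pparg was above 0 in the diet pair and below 0 in the strain pair on every array, in sizes of at most 0.21. The shared SAMP8 LSO RNA enters the pairs with opposite signs, so these values are linked.

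Genes of the same pathways outside the 48 were described from 8 lists by role. Together with the genes outside the 48 in the PPAR and SREBP-1 target lists given below, they made 196 genes, of which 173 were measured. In the diet pair 1 of them was called higher and 0 lower (0.0562% and 0.03% of all genes), with a median of 0.0017. In the strain pair 0 were called higher and 2 lower (0.969% and 0.494% of all genes), with a median of 0.0034. The called genes were Plin4 and Acsm2.

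Plin4, a lipid droplet coat protein of adipocytes and muscle, was lower in SAMP8 at −1.56 and −1.40 (−1.48 ± 0.12, 2.79-fold). It stood opposite to Plin2 on both arrays of the strain pair, and in the diet pair it read 0.33 and 0.11 (0.22 ± 0.15). Hacd4, a dehydratase of the elongation cycle, was higher in SAMP8 at 0.55 and 0.61 (0.58 ± 0.039, 1.49-fold). Mfsd2a, which carries docosahexaenoate as lysophospholipid across the blood-brain barrier, was lower at −0.69 and −0.50 (−0.59 ± 0.14, 1.51-fold), short of the threshold on 1 array. Acad8, a dehydrogenase of valine breakdown, read −0.38 on both arrays. Acot1 read −0.65 and −0.34. It belongs to a family of closely similar thioesterase genes, and whether its probe also reads these was not tested. These genes had smaller values in the diet pair, 0.062 for Mfsd2a, −0.038 for Hacd4 and 0.013 for Acad8.

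Acsm2, a medium-chain acyl-CoA synthetase of kidney and liver, was the gene called higher on WME, at 2.05 and 1.00 (1.52 ± 0.74), with the LSO RNA above background on 1 of the 2 arrays. Its other probe read 1.51 and 0.66 (1.08 ± 0.60). From the deposited processed signals the mean log2 ratios of these probes were 4.15 and 3.81, so the size of the difference depends on how the dim LSO signal is treated. In the strain pair its brightest probe was at least 1.73-fold lower in SAMP8, whose signal was not well above background. The other Acsm2 probe read −0.40 and −0.25 there (−0.33 ± 0.11, 1.25-fold). From processed signals the mean log2 ratios in the strain pair were −3.13 for the brightest Acsm2 probe and −1.07 for the other. The size of this difference thus also depends on how the dim signal is treated. Acsm1, a neighbour of Acsm2 in function, was at least 1.86-fold higher on WME, with LSO not well above background. It was at least 1.21-fold lower in SAMP8. These lower bounds set the mean of the measured RNA against the lowest signal well above background or the dim probe's own, whichever was higher. In the strain pair the dim probe's own was used for both genes, so 1.73-fold and 1.21-fold are the measured ratios. Kidney transcripts were higher in the same RNA. Of 17 measured kidney markers 6 were called higher on WME (0.0562% of all genes), with a list median of 0.25 and summed signals of 11274 to 13184 in WME and 6892 to 8575 in LSO, where Slc12a3 and Slc7a13 were not above background. Of 15 kidney markers measured in the strain pair, 3 were called lower in SAMP8 (0.494% of all genes), Kap (−3.00), Dnase1 (−1.27) and Cyp4b1 (−0.89), and 6 were past 1.2-fold downward and 1 upward. The list median over these 15 was −0.17. The sums cover all 17 probed markers and were 6402 to 8210 in SAMP8, where Slc7a13 was not above background, and 6793 to 8350 in SAMR1. The part of kidney transcripts in the Acsm values was not tested.

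Values in the remaining lists stayed below the threshold. Of the other uptake genes, Fabp4, the adipocyte binding protein, read −0.46 and −0.20 in the diet pair (−0.33 ± 0.18) and 0.28 and 0.13 in the strain pair (0.21 ± 0.10). Slc27a2, a very long-chain acyl-CoA synthetase and transporter of liver and kidney, read 0.26 and 0.23 on WME over LSO (0.25 ± 0.017). It was thus above 0 on both diet arrays, beside the kidney markers given above. In the strain pair the largest eicosanoid values were 0.16 and 0.38 for Ptges, a prostaglandin E synthase (0.27 ± 0.16), and −0.22 and −0.30 for Hpgds, a prostaglandin D synthase (−0.26 ± 0.058). Among other regulators, Ppargc1b, a PPAR coactivator, read 0.21 and 0.45 (0.33 ± 0.17). Among peroxisomal genes, the import receptor Pex7 read 0.17 and 0.32 (0.24 ± 0.11) and the branched-chain oxidase Acox2 −0.20 and −0.16 (−0.18 ± 0.031). Of the 23 measured peroxisomal and 25 mitochondrial genes, 0 were called in either pair, and Acad8 was the one past 1.2-fold.

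Lists of PPAR and SREBP-1 target genes, which include some of the 48, were also counted. Of 35 PPAR targets 32 were measured. In the diet pair 0 were past 1.2-fold (0.172% of all genes upward and 0.109% downward), and the median was −0.0085. Plin2 and Vnn1, a pantetheinase (0.49 and 0.43), were past 1.2-fold upward in the strain pair and Plin4 and Acot1 downward, 2 each way, around a median of 0.011. Over all genes 2.81% were past it upward and 1.71% downward. Of 18 SREBP-1 targets 17 were measured and 0 were past 1.2-fold in either pair. Their medians were −0.036 in the diet pair and 0.0082 in the strain pair, and the largest strain value was that of Lpin1, a phosphatidate phosphatase, at 0.15 and 0.31 (0.23 ± 0.11).

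**Figure D4:**
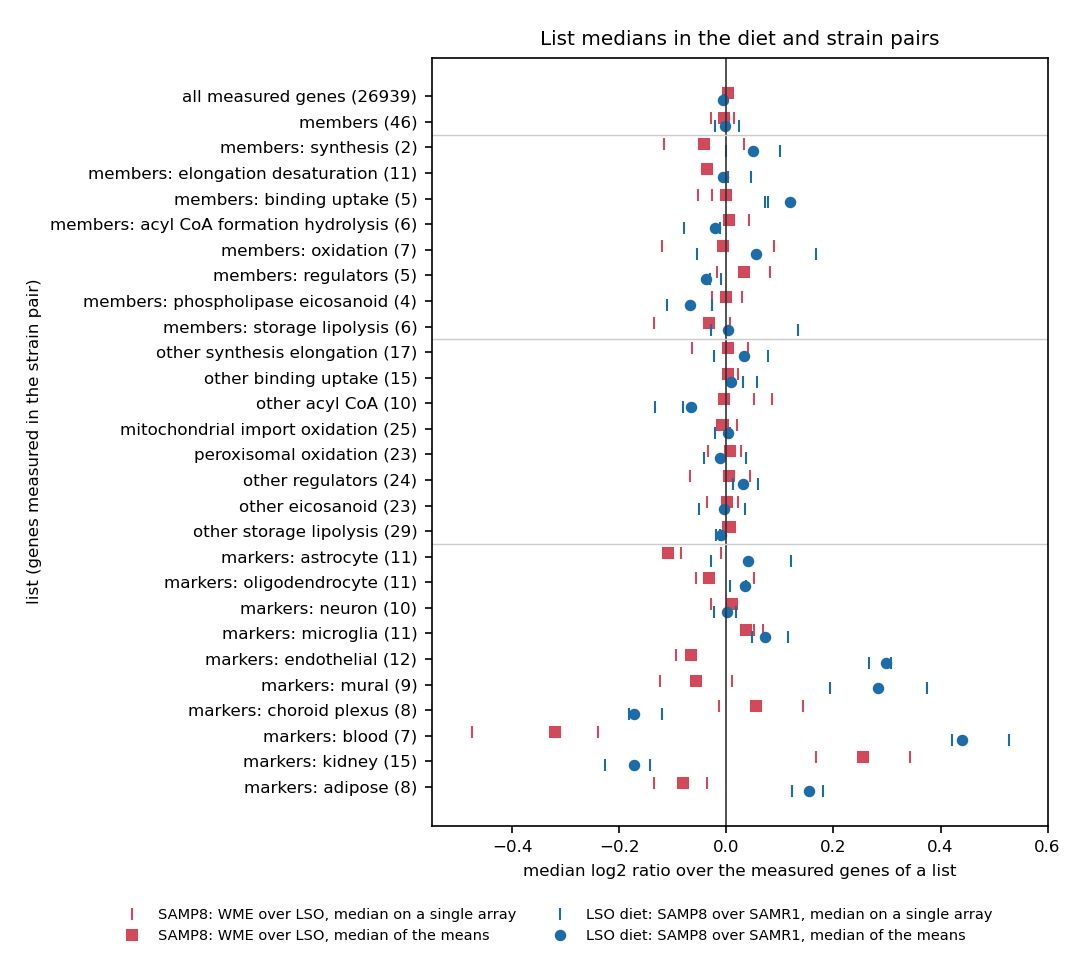
Median log2 ratio (x axis) over the measured genes of each list (y axis, number measured in the strain pair in brackets) for the diet pair (squares) and strain pair (circles), with small ticks for the median on a single array. The members' medians lie at −0.0042 and −0.0034, while the endothelial, mural and blood markers lie at 0.30, 0.28 and 0.44 in the strain pair. In the diet pair the kidney markers lie at 0.25 and the blood markers at −0.32.

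Markers of several cell types differed in the same strain samples as Plin2, Fabp7, Angptl4 and Alox5. Endothelial markers had a median of 0.30 over 12 genes, with 5 past 1.2-fold upward (2.81% of all genes) and Slc2a1 the lowest at −0.19. Their summed signals were 37273 to 38520 in SAMP8 against 33098 to 35565 in SAMR1. Mural cell markers had a median of 0.28 over 9 genes, with 3 called higher (0.969% of all genes). Of the mural markers 7 were above 0 on both arrays and 1 below, with Abcc9 the lowest at −0.14. Their sums were 17670 to 19796 against 14218 to 15538. Blood cell markers had a median of 0.44 over 7 genes, with 2 called higher (0.969% of all genes) and sums of 37248 to 42506 against 28620 to 30459. No marker of these lists was below background in either RNA on both arrays. In the diet pair the blood cell markers had a median of −0.32, with all 7 below 0 on both arrays. Of these, 2 were called lower on WME, S100a8 and S100a9, where 0.03% of all genes were.

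Astrocytes are a main site of Fabp7, and their markers had a median of 0.040 over 11 genes. Gfap (0.55 ± 0.21) and Aqp4 were past 1.2-fold upward, where 2.81% of all genes were. Of these markers, 4 were above 0 on both arrays and 3 below it, with Gjb6 the lowest at −0.17. Their sums were 209075 to 222830 in SAMP8 and 193042 to 213467 in SAMR1, and overlapped. Alox5 is a gene of myeloid cells. Microglia markers had a median of 0.073 over 11 genes with 0 called, sums of 36378 to 38669 in SAMP8 and 34921 to 38381 in SAMR1, and the blood list above was higher in SAMP8, the strain in which Alox5 was lower. Markers of adipocytes, the cells richest in Plin4, had a median of 0.15 over 8 genes with 0 called. Their sums were low, 418 to 574 in SAMP8 and 335 to 491 in SAMR1, and overlapped. Plin1, Fabp4 and Cidec of this list are also in the pathway lists above. The part of these cell types in the values of the fatty acid genes was not tested.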

How the data were processed

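Total RNA from whole brain was extracted with RNeasy Mini, labelled with the Low Input Quick Amp kit and hybridised to 4 two-colour Agilent arrays, per the labels' protocols. Spot intensities were deposited as the output of Agilent Feature Extraction, version 11.0.1.1 per the submitters' processing notes. Median intensities and backgrounds are raw, while the processed ones had background removed and dyes balanced, per the file headers. The log10 ratios in the deposited files were not used further. The deposited series table holds log2 ratios, equal to log2 of red over green processed signal (largest difference 5e-09), not turned for dye, with column medians of −0.0182, 0.0123, 0.00362 and 0.017. Above-background, saturation and outlier flags were used as deposited.

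Median signals were background-corrected with normexp (offset 50) and normalized by loess within each array with limma 3.58.1 under R 4.3.3, giving control spots a weight of 0. The design named mean signals, and medians were used since the columns read here hold no mean. Outlier spots (105 to 123 per array) were left out, spots of a probe averaged, swapped arrays turned and both arrays of a pair averaged as 1 replicate. RefSeq accessions of the GRCm38.p6 gene table gave names to 23374 of 41174 probes, and 17800 had no match. Measured genes are those whose probe exceeded background clearly, on both arrays, for 1 RNA or more. The number of arrays limits the precision, and no test was run.

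The members and all gene lists were chosen with earlier results of these data known. Members were named when past 1.5-fold on both arrays on any probe, then up to 4 per role and pair with the largest mean among those of one sign. Other pathway genes were named when called, or up to 2 per list where none was called. Members that changed sign, further probes, Acsm1, Plin4 in the diet pair, Acot1, Vnn1 and the marker genes were named beyond this rule after their values were seen. Alternatives were the processed signals, an offset of 16, median centring, both RNAs above background, no filter, the median over probes, outlier spots kept, a 2-fold threshold and single arrays. The steps were tested on simulated data, with changes given only to probes well above background in both RNAs on every array. Of 50 probes with a true 1.5-fold change, 4 were called in the diet pair and 2 in the strain pair, and 49 and 50 passed 1.2-fold. Of 50 with a true 1.2-fold change, 7 and 2 passed 1.2-fold. All 50 with a true 2-fold change were called in each pair. A count of 0 therefore does not exclude changes of about the size of the threshold used. Recovery on dim probes was not examined separately, so larger changes on such probes are not excluded either.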

Additional observations from a re-analysis of the deposited data

How the results depend on the processing

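With 1 RNA per group, none of these values has a biological replicate, and dim probes such as those of Alox5 are limited by signal over background. Under median centring the members' median moved to 0.15 in the diet pair and −0.065 in the strain pair, where the median of all genes was 0.066 and −0.026. The cause was not tested. Role medians in that setting, diet pair first, were 0.21 and −0.098 for acyl-CoA formation and hydrolysis, 0.16 and 0.052 for binding and uptake, 0.14 and −0.073 for elongation and desaturation, and 0.13 and −0.090 for regulators. In the diet pair alone they also moved for oxidation (0.19), phospholipases and eicosanoids (0.10) and storage and lipolysis (0.14). The elongation and desaturation median in the diet pair was −0.034 from processed signals and −0.036 with an offset of 16.

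From processed signals, 1 member (Alox5) was called lower in the strain pair. Over all genes 63 were then called higher and 41 lower in the diet pair, and 467 and 290 in the strain pair, in place of 15, 8, 261 and 133. A 2-fold threshold left 7, 2, 101 and 38, array 1 alone gave 81, 20, 389 and 176, and array 2 alone 15, 62, 323 and 239. Among other pathway genes, processed signals gave 2 called higher and 1 lower in the diet pair and 2 higher in the strain pair. With both RNAs above background, 0 were called higher in the diet pair, since Acsm2 leaves, and 1 lower in the strain pair. An offset of 16 gave 1 higher in the strain pair. The median over probes gave 1 higher and 1 lower there, and a 2-fold threshold 1 lower.

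On single arrays the members' median ran from −0.029 to 0.015 in the diet pair and from −0.021 to 0.023 in the strain pair. Past 1.2-fold were 2 to 3 of 46 members in the diet pair, where 3.09% (array 2) and 5.54% (array 1) of all genes were, and 5 to 9 in the strain pair, where 10.7% (array 2) and 9.87% (array 1) were. Members called lower in the strain pair were 0 to 1. Role medians in the diet and strain pair ran from 0.0023 to 0.041 and −0.078 to −0.012 for acyl-CoA formation, −0.053 to −0.027 and 0.072 to 0.078 for binding and uptake, −0.0372 to −0.0371 and 0.0025 to 0.047 for elongation and desaturation, −0.12 to 0.090 and −0.056 to 0.17 for oxidation, −0.027 to 0.029 and −0.11 to −0.026 for phospholipases, −0.017 to 0.082 and −0.031 to −0.0093 for regulators, −0.13 to 0.0070 and −0.028 to 0.13 for storage, and −0.12 to 0.033 and −0.0012 to 0.10 for synthesis. Each value is already a ratio of both RNAs of a pair on the same array, and no further pairing was possible because each comparison holds 1 replicate. The array numbers were given in accession order. A slide block was not run, since all arrays lay on 1 slide.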
